A study of Gallus gallus with 16 samples.

Results

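Light that extended the day into the first hours of the night was set against darkness in the pineal glands of chicks, using 4 of the 16 two-channel cDNA arrays of the series. The 4 arrays were chosen by their titles: 2 pools of birds given 2 h of extra light and 2 pools of dark controls. The series holds no further pool with this extra light. Its 2 other dark control pools taken at ZT14, also under 12 h of light and 12 h of dark, belong to the long-day comparison. All birds were male Rhode Island Red chicks 1 week old that had lived in 12 h of light and 12 h of dark, where lights-on is zeitgeber time 0 (ZT0). The light birds, assigned at random in a group of 25, stayed in light from ZT12 to ZT14, while the controls entered darkness at ZT12. Glands of both were taken at ZT14, and 5 to 6 glands made 1 pool, so the spread between pools is not the spread between birds. The other 12 arrays entered the model for the estimate of spread and for 2 comparisons. They hold 4 pools given 2 h of light from ZT22 to ZT24 with 4 dark controls, all taken at ZT0, and 2 pools from a long day with 2 controls, taken at ZT14. The long day is given as 17 h of light and 7 h of dark in the titles and as 15 h and 9 h in the design text.

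The avian pineal gland carries its own photoreceptors and its own circadian clock, and it secretes melatonin at night. Light at night acts directly on its cells, lowers melatonin synthesis acutely and shifts the phase of the clock. Light in the early night is known to delay the clock and light in the late night to advance it, which is why the time of exposure matters in such designs.

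Every pool was hybridised against 1 common reference, mixed in equal parts from the 16 pools, and the deposited log ratio is read here as log2. Which channel was divided by which is not stated in the labels. Higher therefore means a higher deposited ratio, and if the reference was the numerator all directions below are reversed at once. A ratio to a reference of the same tissue gives no absolute level, so ratios of different genes are not compared and the tissue cannot be checked against its markers. The 4 arrays measured 15565 to 15601 of 15609 probes, with medians between -0.0439 and -0.00281. Dark pool 2 had the widest spread over probes, an SD of 0.510 against 0.391 to 0.403 on the other 3. Correlations across probes were 0.315 between the light pools, 0.284 between the dark pools and 0.169 to 0.354 between light and dark pools, so the arrays did not group by treatment. The long-day arrays and their controls spread wider, with SDs of 0.820 to 1.08.

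TXN, thioredoxin, which keeps protein cysteines reduced and supplies electrons to peroxiredoxins, was the 1 of 12532 genes that passed limma's test at a Benjamini-Hochberg adjusted p under 0.05, which is 0.00798% of the genes. Its log ratio was 0.50 and 0.31 in the light pools and -1.36 and -2.04 in the dark pools. Both light pools lay above the reference and both dark pools below it, without overlap. The difference was 2.11 ± 0.25 (limma standard error, 2 pools each, 95% interval 1.56 to 2.65), a fold of 4.30 with an adjusted p = 0.0138. The controls of the long day, also taken at ZT14, had -0.23 and -0.40, nearer the reference. With all 4 ZT14 dark pools as controls the difference was 1.41. TXN had 1 probe on the array. With 1 probe and a value on every array, its difference could not change with the probe summary or the filter on missing values. The call held without the long-day arrays, with array weights, after quantile normalization or array scaling, and against all 4 ZT14 dark pools. It ended with only the 4 arrays fitted (adjusted p = 0.882), with a trended robust prior (adjusted p = 0.0716), with the pool number as a block (adjusted p = 0.0844) and without light pool 1, where the difference was 2.01 (adjusted p = 0.106). The number of genes called was 2 without light pool 1, 7 without light pool 2, 65 without dark pool 1 and 8 without dark pool 2.

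Across all genes, 526 had an unadjusted p under 0.05 (4.20%), 280 of them higher in light (2.23%) and 246 lower (1.96%). The light and dark pools did not overlap for 4415 genes (35.2%), 2231 of them higher in light (17.8%) and 2184 lower (17.4%). Of these, 80 were higher by at least 1 on the log2 scale (0.638% of all genes) and 78 lower by at least 1 (0.622%). A positive difference was found for 6273 genes (50.1%). The median difference over all genes was 0.00038, and 95% of the differences lay between -0.72 and 0.68. With 2 pools a side, an exact two-sided permutation test of a single gene cannot go below p = 0.333, so the limma fit shares its estimate of the spread with the other arrays.

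**Figure D1:**
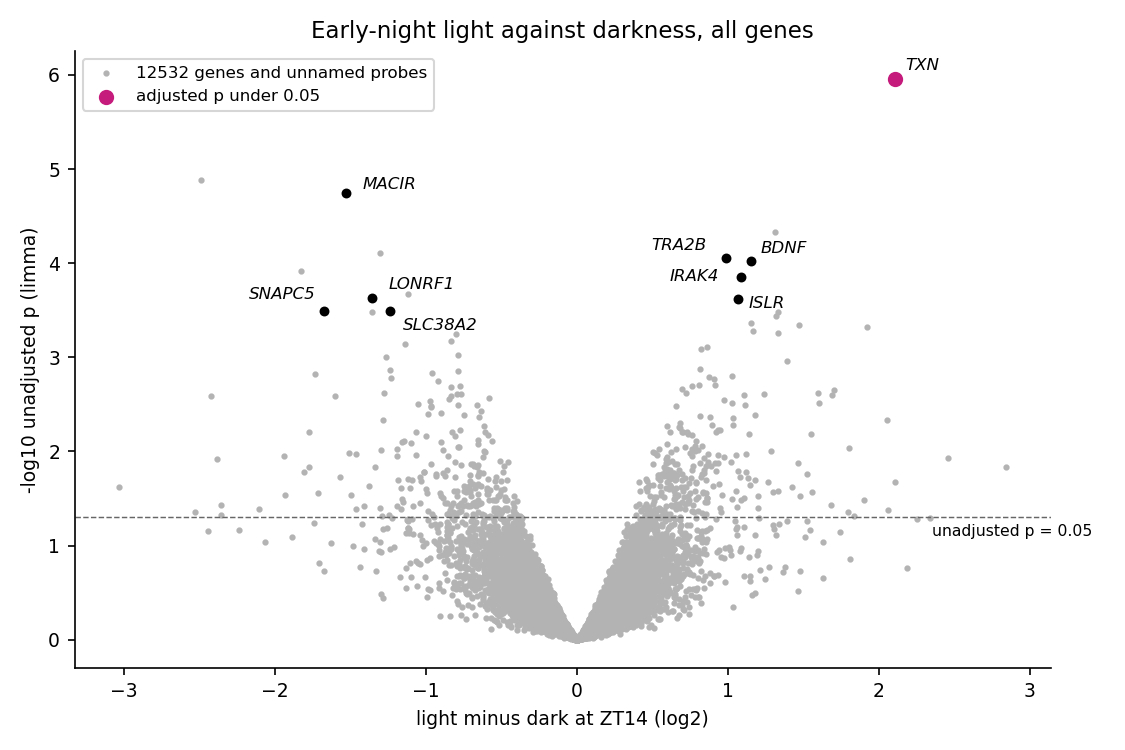
Difference between early-night light and darkness for each gene or unnamed probe (x axis, log2 scale) against the size of its unadjusted limma p (y axis, -log10). TXN, in colour, is the 1 gene past the adjusted threshold at a difference of 2.11, and black points mark other named genes that did not pass.

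Besides TXN, the 11 other genes named by their p among those higher in light did not pass the adjusted test. TRA2B, a splicing regulator that binds exonic enhancers, had 0.97 and 0.68 in light against -0.09 and -0.24 in the dark. Both light pools lay above and both dark pools below the reference, with a difference of 0.99 ± 0.18 (adjusted p = 0.171). BDNF, a neurotrophin whose transcription follows neuronal activity and cAMP, had -0.12 and -0.33 in light against -1.24 and -1.51 in the dark. The light pools lay near the reference and the dark pools well below it, with a difference of 1.15 ± 0.21 (adjusted p = 0.171). The controls of the long day had -0.38 and -0.39, nearer the light pools. With all 4 ZT14 dark pools as controls the BDNF difference was 0.65. IRAK4, the kinase that starts signalling below Toll-like and interleukin-1 receptors, had 0.39 and 0.01 against -0.91 and -0.86, a difference of 1.08 ± 0.21 (adjusted p = 0.194).

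NDUFB2, an accessory subunit of respiratory complex I, stood above the reference in all 4 pools, at 1.51 and 1.81 in light and 0.42 and 0.57 in the dark, and differed by 1.17 ± 0.26 (adjusted p = 0.310). The neutral amino acid exchanger SLC1A4 had 0.55 and 0.87 in light and -0.56 and -0.96 in the dark, a difference of 1.47 ± 0.32 (adjusted p = 0.300). SLC47A2, an exporter of organic cations, differed by 1.33 ± 0.28. The focal adhesion adaptor BCAR1 differed by 1.32 ± 0.28, but its light pools lay apart, at 0.67 and -0.30. SULF2, which trims sulfate from heparan sulfate chains outside the cell, differed by 1.15 ± 0.25 with light pools at 0.54 and -0.12. The secreted stromal protein ISLR differed by 1.07 ± 0.21, the kinase PSKH1 by 1.33 ± 0.30 and CFDP1 by 0.86 ± 0.20. For these 6 genes the adjusted p lay between 0.252 and 0.374, and the lower light pool was above the higher dark pool in each, as the rule for naming them required.

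Among genes lower in light, MACIR, a regulator of macrophage metabolism and inflammation, had the smallest p of those with a symbol. Its log ratio was 0.30 and 0.15 in the light pools and 1.68 and 1.83 in the dark pools, each pair within 0.2 of itself. The difference was -1.53 ± 0.24, a fold of 2.89 (adjusted p = 0.0749). LONRF1, a RING finger protein with a LON domain, had -0.65 and -0.60 in light and 0.75 and 0.72 in the dark. The replicates of each early-night group differed by less than 0.1 while the groups lay on opposite sides of the reference. The difference was -1.36 ± 0.27 (adjusted p = 0.252). The long-day controls, also taken at ZT14, lay far apart for LONRF1, at 0.505 and -0.519, the lower near the early-night light pools. With all 4 ZT14 dark pools as controls the LONRF1 difference was -0.988. In the limma fit without the wide-spread long-day arrays both passed, MACIR with an adjusted p = 0.0152 and LONRF1 with an adjusted p = 0.0461, beside TXN. Neither passed with only the 4 arrays fitted (limma adjusted p = 0.882 for each). With a trended robust prior the adjusted p was 0.357 for MACIR and 0.326 for LONRF1. With the pool number as a block it was 0.340 and 0.578.

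SLC38A2, the glutamine and alanine carrier that cells induce when amino acids are short, had -1.06 and -1.52 in light and 0.06 and -0.16 in the dark, a difference of -1.24 ± 0.26 (adjusted p = 0.258). Its 2 probes had -1.39 and -1.09. PDIA3, a disulfide isomerase that folds glycoproteins in the endoplasmic reticulum, had -0.52 and -0.69 against 0.20 and 0.19, a difference of -0.80 ± 0.18 (adjusted p = 0.310). SLC2A11L1, a member of the glucose transporter family by its name, differed by -1.14 ± 0.26 (adjusted p = 0.363). CHCHD4, the oxidoreductase that imports and oxidises proteins of the mitochondrial intermembrane space, differed by -1.24 ± 0.31 (adjusted p = 0.532), with dark pools at 1.44 and 0.24. The membrane-cutting subunit CHMP2A differed by -0.79 ± 0.20 (adjusted p = 0.532), and its pools of 1 kind were within 0.1 of each other.

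SNAPC5, a subunit of the complex that starts small nuclear RNA transcription, had a large difference of -1.68 ± 0.35 that came from 1 of its 2 probes. The probes gave -3.37 and 0.02, and the dark pools 2.29 and 0.87. Without dark pool 1 the difference was -0.97, and without dark pool 2 it was -2.38. The controls of the long day had -1.52 and -0.85, far below the early-night dark pools. With all 4 ZT14 dark pools as controls the SNAPC5 difference was -0.29. The muscle Z-disc protein MYOZ3 differed by -1.60 ± 0.43, the nuclear import carrier KPNA4 by -0.58 ± 0.16, the Wnt pathway coactivator BCL9L by -1.05 ± 0.29 and the small GTPase DIRAS2 by -0.66 ± 0.19. None of these 4 passed, and their adjusted p ran from 0.560 to 0.593.

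**Figure D2:**
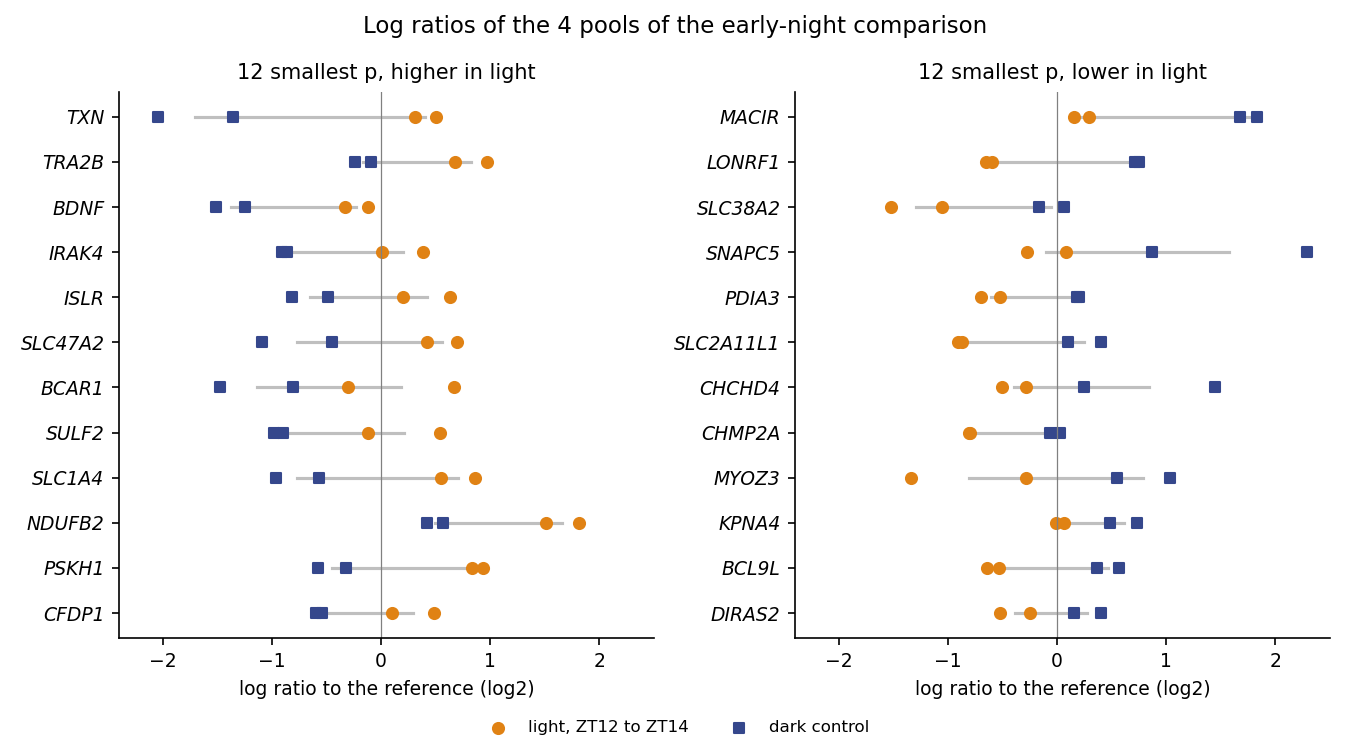
Log ratio to the reference (x axis, log2) of the 2 light pools (orange circles) and 2 dark pools (blue squares) for 12 genes in each direction, those with a symbol, no overlap of pools and the smallest p, with a grey line between the group means. Pools of 1 group lie close together for LONRF1, MACIR and CHMP2A, and far apart for SNAPC5, MYOZ3 and BCAR1.

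Genes that activity and cAMP induce in neurons did not move as a group. Of 50 listed, 17 were measured, 8 with a positive and 9 with a negative difference, and the median was -0.02. BDNF and SIK1 were the 2 with an unadjusted p under 0.05, which is 11.8% of the list against 4.20% of all genes. SIK1, a kinase that cAMP induces and that then restrains CREB-dependent transcription, had 0.38 and 0.17 in light and -0.46 and -0.51 in the dark. The groups did not overlap, as the rule for naming it required, and the difference was 0.76 ± 0.20 (adjusted p = 0.560). EGR1, a classical immediate early gene, had -0.20 and -0.10 in light and -0.02 and 0.05 in the dark, a difference of -0.17 ± 0.21. Its 95% interval ran from -0.62 to 0.28. For JUN, DUSP1 and MYC, further genes of this kind, the differences between light and dark were 0.23 ± 0.21, 0.16 ± 0.28 and 0.05 ± 0.18. In the list of cAMP and calcium signalling, with 36 members measured and a median of -0.02, ATF1, a transcription factor that binds cAMP response elements, differed by -0.61 ± 0.20 and the calcium release channel ITPR2 by 0.69 ± 0.30. Those 2 were the members with an unadjusted p under 0.05, and their share of 5.56% is near the 4.20% of all genes.

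Clock genes did not differ beyond the adjusted threshold, and some varied widely between pools of 1 group. Of 28 listed, 12 were measured, 6 on either side of 0, with a median of -0.02. PER2, ARNTL and NFIL3, the clock genes most often followed in this gland, were not among the named probes and are not analysed here. CLOCK, the partner of BMAL1 in the activating limb of the clock, had -0.75 and -1.06 in light and -0.41 and -0.47 in the dark. Its difference of -0.46 ± 0.18 had an unadjusted p = 0.0198 and an adjusted p of 1. PER3, a repressor of the clock, was far above the reference in every pool, at 3.30 and 2.19 in light and 2.65 and 2.55 in the dark, and the groups overlapped (0.14 ± 0.38). CRY2 and CRY1, the other repressors, had 0.30 ± 0.28 and -0.76 ± 0.97, and the CRY1 light pools alone were apart by more than 1, at -1.70 and -0.27. BHLHE40, a light-induced repressor in several tissues, had 0.08 ± 0.25.

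The measured genes of melatonin and cofactor synthesis showed no difference beyond the spread. Of 21 listed genes 9 were measured, with differences from -0.13 to 0.18 and a median of 0.03. An unadjusted p under 0.05 was found for 0 of the 9, against 4.20% of all genes. With so few genes a count of 0 does not set the list apart from that share. TPH1, which hydroxylates tryptophan in the first step, had 0.01 and -0.05 in light and -0.07 and -0.26 in the dark, a difference of 0.14 ± 0.23 with a 95% interval of -0.36 to 0.65. GCH1, PTS, SPR and QDPR, which make and recycle its tetrahydrobiopterin cofactor, had -0.05 ± 0.34, 0.10 ± 0.30, -0.11 ± 0.42 and 0.10 ± 0.24. Of the genes given here TPH1 alone lies on the route to melatonin itself. AANAT and ASMT, the last 2 enzymes of the pathway, are not analysed here, so the step that light is known to act on was not measured. TPH1, GCH1, OTX2, ISL1 and NEUROD1 were the measured ones of 20 markers of pinealocytes, the melatonin cells themselves. The homeobox factor OTX2 differed by 0.58 ± 0.27 (unadjusted p = 0.0496) and by 0.27 without dark pool 1, and the median of the 5 was -0.05.

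Photoreceptor and retinoid genes had a median difference of 0.28, against 0.00038 over all genes. Of 54 listed, 9 were measured and 7 had a positive difference, against 50.1% of all genes. RGR, the opsin that isomerises retinal back to its light-sensitive form, had 0.05 and 1.44 in light and -0.37 and 0.13 in the dark. The groups overlapped and light pool 2 carried the difference of 0.86 ± 0.36, which was 0.17 without it. ABCA4, which moves retinal conjugates across disc membranes, differed by 0.39 ± 0.18. These 2 had an unadjusted p under 0.05 (22.2%, against 4.20% of all genes). RLBP1, GNB1, RGS9 and STRA6 had 0.32 ± 0.25, 0.29 ± 0.18, 0.28 ± 0.41 and 0.25 ± 0.20, and the retinol dehydrogenase RDH10 had -0.57 ± 0.30. The list median lay between 0.14 and 0.39 over the alternatives for which it was computed. In the list of pineal transcription factors, 6 were measured with a median of 0.14. OTX2 alone had an unadjusted p under 0.05 (16.7%, against 4.20% of all genes).

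Of 25 measured genes of thiol and antioxidant defence, 5 had an unadjusted p under 0.05 (20.0%, against 4.20% of all genes). TXN was among them, and all 5 were higher in light. The list was drawn up with the value of TXN known, so its share is not independent of that gene. HMOX1, which degrades heme, had 0.27 and 0.60 in light and -0.21 and -0.18 in the dark, a difference of 0.63 ± 0.24. NQO2, a quinone reductase, differed by 0.66 ± 0.28, or 0.28 against all 4 ZT14 dark pools. GPX7, a peroxidase of the endoplasmic reticulum, differed by 0.57 ± 0.26. For the transcription factor NFE2L1 the difference of 1.84 ± 0.85 came from light pool 2, at 3.81, while light pool 1 had -0.40 and the dark pools -0.19 and -0.07. Other parts of the system lay near 0. The reductase that recharges thioredoxin, TXNRD1, had -0.16 ± 0.22, the mitochondrial thioredoxin TXN2 -0.01 ± 0.21, and PRDX1 and PRDX3, peroxidases that thioredoxins reduce, 0.00 ± 0.18 and 0.03 ± 0.29. SOD1, CAT and NFE2L2 had -0.09 ± 0.20, -0.33 ± 0.39 and -0.09 ± 0.25, and the list median was 0.03.

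Subunits of the respiratory chain and ATP synthase had a median difference of 0.11, with 22 of 32 measured members positive, against 50.1% of all genes. NDUFB2, the ATP synthase subunit ATP5J2 at 0.81 ± 0.20 and the complex I subunit NDUFA9 at 0.77 ± 0.27 were the 3 with an unadjusted p under 0.05 (9.38%, against 4.20% of all genes). The dark pools of NDUFA9 lay apart, at -0.13 and -1.20, and its difference was 0.24 without dark pool 2. COX4I1, COX6A1 and COX7C of complex IV had 0.03 ± 0.20, 0.01 ± 0.19 and -0.02 ± 0.35, and ATP5B, the catalytic subunit of ATP synthase, had -0.15 ± 0.19. Cytosolic ribosomal proteins had a median of 0.09 with 25 of 35 positive. RPL10A alone had an unadjusted p under 0.05 (2.86%, below the 4.20% of all genes). It differed by 0.45 ± 0.18, and its 3 probes ran from -0.08 to 1.11. Mitochondrial ribosomal proteins had a median of 0.03, with MRPS30 at 0.52 ± 0.24 and MRPL13 at -0.60 ± 0.24.

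Splicing factors had a median of -0.06 over 46 members, 18 of them positive. The 4 with an unadjusted p under 0.05 (8.70%, against 4.20% of all genes) were higher in light. After TRA2B came HNRNPDL at 0.54 ± 0.20, the kinase SRPK2, which phosphorylates SR proteins, at 0.51 ± 0.21, and the cold-induced RNA-binding protein RBM3 at 0.47 ± 0.18. Proteasome and ubiquitin genes had a median of -0.11, with 34 of 51 negative. The 4 with an unadjusted p under 0.05 (7.84%, against 4.20% of all genes) were lower. These were LONRF1, the proteasome lid subunit PSMD11 at -1.19 ± 0.40, the SUMO-activating subunit UBA2 at -0.69 ± 0.24 and the core subunit PSMA3 at -0.42 ± 0.17. For UBA2 and PSMA3 the probes disagreed, from -1.90 to 0.01 over 3 probes and from -0.84 to 0.01 over 2, and UBA2 was -0.36 without dark pool 2. PSMD11 had -1.47 and -0.94 in light against -0.05 and 0.02 in the dark. The median of either list changed sign under some alternatives, between -0.08 and 0.09 for splicing and between -0.16 and 0.07 for the proteasome.

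Carriers of amino acids were split. In the list of amino acid transport and starvation genes, 4 of 25 had an unadjusted p under 0.05 (16.0%, against 4.20% of all genes), 2 each way, and the median was 0.01. SLC1A4 and the taurine carrier SLC6A6, at 0.88 ± 0.26, were higher in light, and SLC38A2 and the alanyl-tRNA synthetase AARS1, at -0.82 ± 0.35, lower. The AARS1 difference came from dark pool 2, at 1.42, with dark pool 1 at -0.19 and the light pools at -0.09 and -0.33, and its probes disagreed, at -1.68 and 0.03. Toll-like receptor and NF-kB signalling was split as well, with MACIR lower and IRAK4 and the chemokine IL8L2, at 0.49 ± 0.23, higher among 33 members with a median of -0.03 (9.09% with an unadjusted p under 0.05, against 4.20%). The IL8L2 light pools lay apart, at -0.17 and 0.55, and its difference was 0.13 without light pool 2.

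Chaperones did not move together. Endoplasmic reticulum folding genes had a median of 0.04 over 36 members, with PDIA3 lower and the selenoprotein SELENOK at 0.51 ± 0.23, or 0.23 without dark pool 2. Cytosolic heat shock proteins and co-chaperones had a median of -0.05 over 32, with HSPA4L, a chaperone of the Hsp110 family, at -0.81 ± 0.25. Of 21 glucose-use genes LDHB, the heart-type lactate dehydrogenase subunit, had 0.61 ± 0.23, which was 0.30 without dark pool 2, and the list median was 0.12. Cell division genes had a median of 0.15 over 45 members, 30 of them positive, against 50.1% of all genes. NUSAP1, a protein of the spindle, had 0.56 ± 0.21 with 5 probes that ran from -0.22 to 1.55. The origin recognition subunit ORC1 had 1.06 ± 0.46, from light pool 1 at 2.17 with the other 3 pools between 0.03 and 0.28. Sterol and fatty acid synthesis had a median of 0.05 over 21 members and thyroid and photoperiod genes -0.02 over 7. For neuropeptide and transmitter input it was -0.10 over 27 and for interferon response genes 0.04 over 15. These lists had 0 members with an unadjusted p under 0.05, against 4.20% of all genes. In lists this short a count of 0 does not set them apart from that share.

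**Figure D3:**
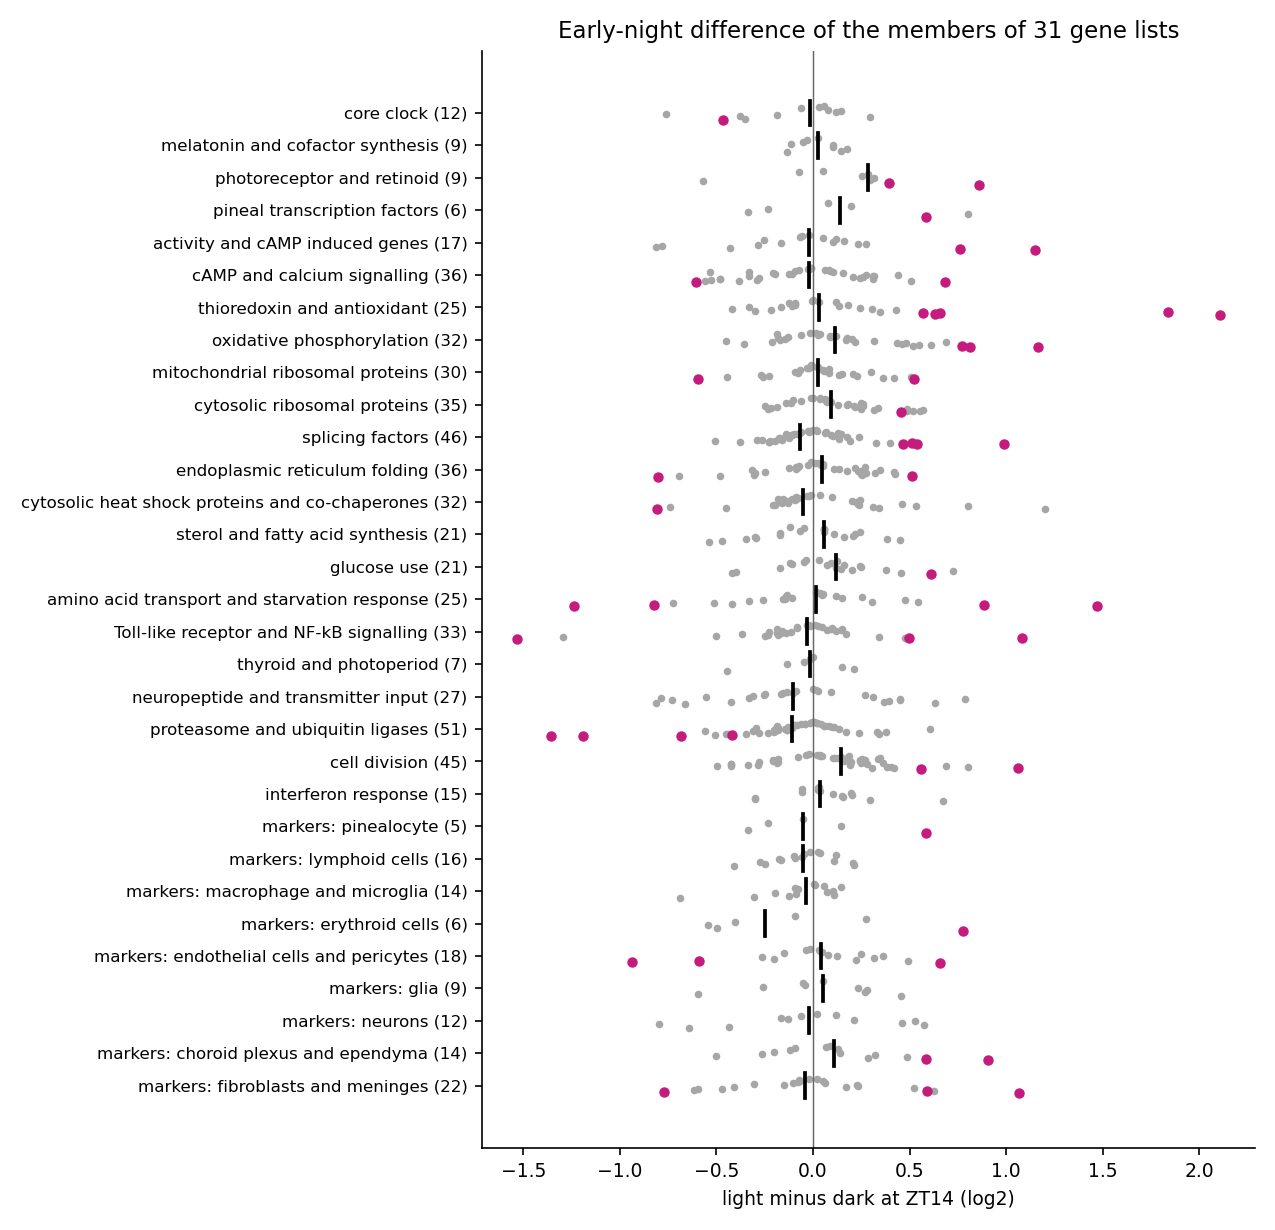
Difference between early-night light and darkness (x axis, log2) for each measured member of 31 gene lists, with the number measured in brackets, the list median as a black bar and members with an unadjusted p under 0.05 in colour. Medians lie between -0.25 for erythroid markers and 0.28 for photoreceptor and retinoid genes.

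Markers of other cell types that the dissected gland could hold showed no common shift, and their part in the results above was not tested. In bulk tissue fewer cells of a type and less RNA per cell cannot be told apart. Lymphoid markers had a median of -0.05 over 16 members with 0 at an unadjusted p under 0.05, and their mean log ratio was 0.18 and 0.26 in the light pools and 0.22 and 0.32 in the dark pools. Macrophage and microglia markers had a median of -0.04 over 14, again with 0, and means of 0.00 and 0.12 in light against 0.22 and 0.05 in the dark. Of these 14, 7 had a positive and 7 a negative difference, from -0.69 to 0.14, with CSF1R, a receptor that defines such cells, at -0.30 ± 0.20 and SPI1, a transcription factor of the lineage, at 0.01 ± 0.18. Glial markers had a median of 0.05 over 9, with means of 0.27 and 0.14 in light and 0.20 and 0.13 in the dark. Neuronal markers had a median of -0.02 over 12, with means of 0.43 and 0.01 against 0.32 and 0.18. Neither list had a member with an unadjusted p under 0.05. The share over all genes was 4.20%, and counts of 0 in lists of 9 to 16 members do not set them apart from it.

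Vessel and stromal markers held both signs. An unadjusted p under 0.05 was found for 16.7% of vessel markers and 13.6% of fibroblast and meningeal markers. For choroid plexus and ependymal markers the share was 14.3% and for erythroid markers 16.7%, each against 4.20% of all genes. Among 18 markers of endothelial cells and pericytes PROCR, the endothelial receptor of protein C, had 0.66 ± 0.22, the junction protein PECAM1 -0.59 ± 0.24 and the pericyte gene RGS5 -0.93 ± 0.34. The PECAM1 light pools lay apart, at -0.57 and 0.04, and its difference was -0.28 without light pool 1. RGS5 depended on dark pool 2, which had 1.53 beside 0.22 in dark pool 1, and was -0.28 without it. Fibroblast and meningeal markers had a median of -0.04 over 22, with ISLR and the matrix protein FBLN2, at 0.59 ± 0.23, higher and MGP, an inhibitor of calcification, at -0.77 ± 0.24, or -0.45 without dark pool 2. Choroid plexus and ependymal markers had a median of 0.11 over 14, with the ciliary dynein DNAH9 at 0.91 ± 0.23 and OTX2, which pinealocytes share. Of 6 erythroid markers the globin HBBA had 0.78 ± 0.35, with 1.26 and 1.70 in light and 1.32 and 0.08 in the dark, so the pools overlapped and dark pool 2 carried the difference. The erythroid median was -0.25, and the erythroid mean was 0.07 and 0.32 in light against 0.25 and 0.30 in the dark. Means for vessel markers were -0.05 and -0.03 against -0.13 and -0.01, for fibroblast and meningeal markers 0.24 and 0.11 against 0.17 and 0.19, and for choroid plexus and ependymal markers -0.10 and 0.26 against -0.18 and 0.09.

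A tested difference between late-night and early-night light was found for 5 genes. Early-night light prolonged the day, whereas late-night light began at ZT22 after darkness from ZT12. Time of night thus cannot be told apart from the kind of exposure or the set of pools. Late-night light, taken at ZT0 with its own dark controls, was compared with early-night light in 1 contrast of the same limma fit, and 5 of 12532 genes passed (0.0399%). LONRF1 differed most, by 2.27 ± 0.33 (late minus early, adjusted p = 0.0286), since it was 0.91 ± 0.19 higher after late-night light. At ZT0 the light pools had 0.50, 0.41, 0.60 and 0.67 and the dark pools -0.33, -0.34, -0.13 and -0.68. The order of light and dark was thus turned between the 2 comparisons, without overlap in either. By itself neither LONRF1 effect passed the adjusted test (limma adjusted p = 0.252 at ZT14 and 0.642 at ZT0). BDNF was turned too, from 1.15 ± 0.21 at ZT14 to -0.91 ± 0.15 at ZT0, a difference of -2.06 ± 0.26 (adjusted p = 0.0225). Neither BDNF effect passed by itself (limma adjusted p = 0.171 at ZT14 and 0.327 at ZT0). At ZT0 its light pools had -1.14, -1.12, -0.95 and -1.30 and its dark pools -0.04, -0.45, 0.00 and -0.36. The ratios after late-night light thus came close to those of the early-night dark controls.

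MACIR was 0.43 ± 0.17 after late-night light, and the difference between the exposures was 1.96 ± 0.29 (adjusted p = 0.0286). Neither MACIR effect passed by itself (limma adjusted p = 0.0749 at ZT14 and 0.9997 at ZT0). At ZT0 its light pools had 0.65, 0.64, 0.57 and 0.90 and its dark pools 0.37, 0.11, 0.41 and 0.15. The unnamed probe DT40subNB_9B10 followed the same order, with -1.30 ± 0.23 at ZT14 and 0.83 ± 0.16 at ZT0, and the difference was 2.13 ± 0.28 (adjusted p = 0.0248). Its effects did not pass by themselves either (limma adjusted p = 0.171 at ZT14 and 0.52 at ZT0). TXN was of another kind, since it did not differ beyond its spread at ZT0, at -0.03 ± 0.18 with all 8 pools between -1.18 and -0.70. Its difference between the exposures was -2.13 ± 0.31 (adjusted p = 0.0286). NDUFB2, at -0.81 ± 0.18 after late-night light, came near the threshold with -1.98 ± 0.31 (adjusted p = 0.0526). SIK1, at -0.06 ± 0.14 at ZT0, did not pass (-0.82 ± 0.24, adjusted p = 0.893), nor did TRA2B (-1.01 ± 0.22, adjusted p = 0.268). The count of 5 fell to 0 without late-night light pool 2, without late-night light pool 4, without ZT0 dark pool 1 and without ZT0 dark pool 3, and it was 45 without early-night dark pool 1. The 4 fits with 0 calls had 478, 541, 456 and 436 genes with an unadjusted p under 0.05. The limma count was also 0 with a trended robust prior (509 unadjusted) and with the pool number as a block (542 unadjusted). It was 9 without early-night dark pool 2, 3 without early-night light pool 1, 2 without late-night light pool 1, 3 without ZT0 dark pool 2 and 1 without ZT0 dark pool 4.

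**Figure D4:**
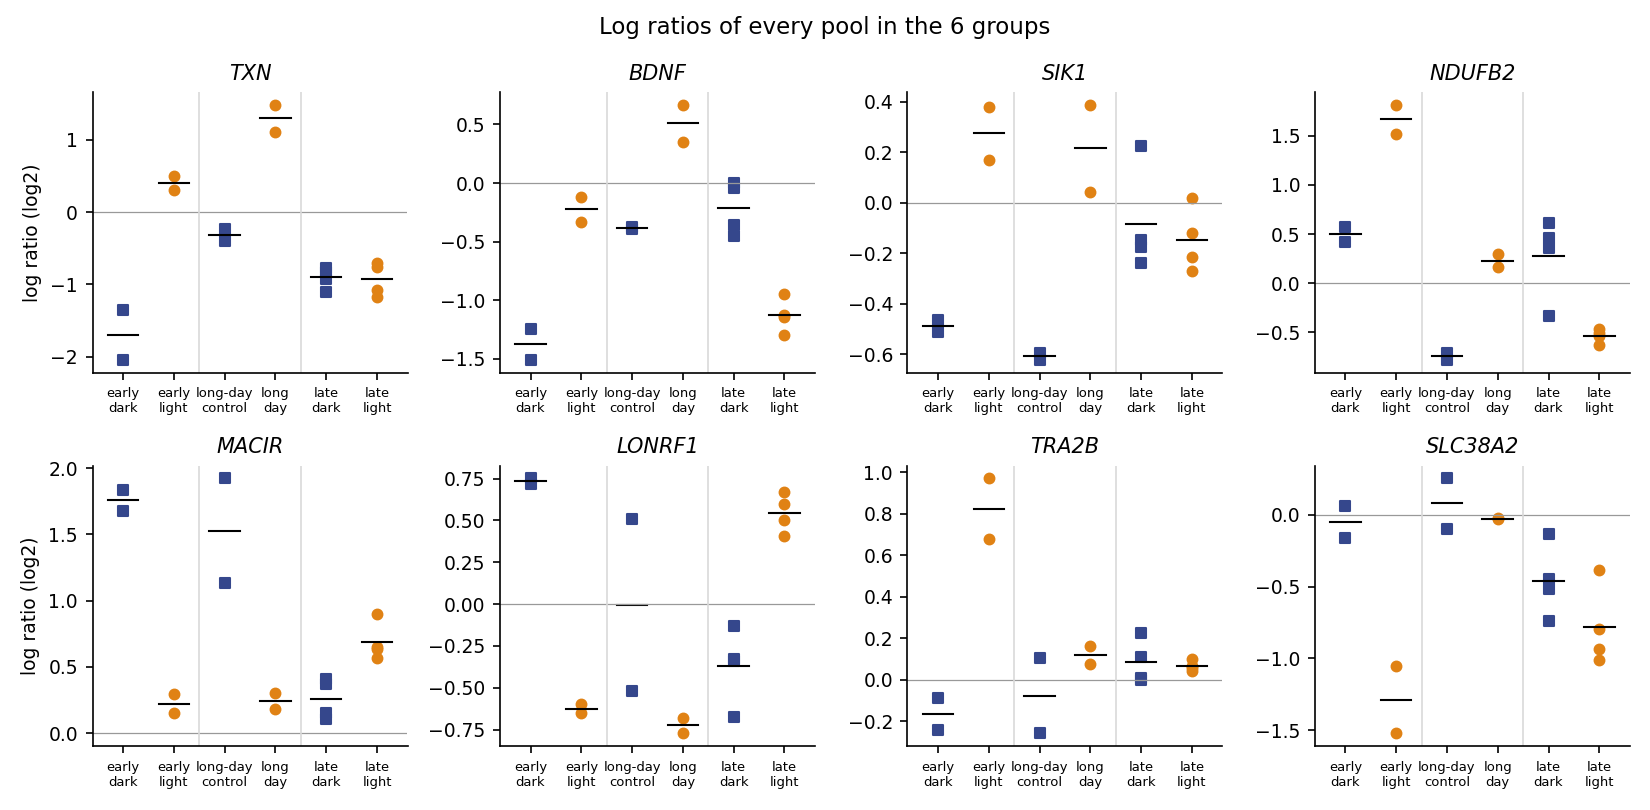
Log ratio to the reference (y axes, log2, each with its own range) of every pool in the 6 groups for 8 genes, with dark controls as blue squares, light or long-day pools as orange circles and group means as bars. For LONRF1 and BDNF the order of light and dark at ZT0 is the reverse of that at ZT14, while TXN pools at ZT0 lie together.

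The long day, in which birds were under a longer photoperiod up to ZT14, gave values on the same side of 0 for TXN and the 5 genes that follow. TXN had 1.11 and 1.48 in the long day and -0.23 and -0.40 in its controls, a difference of 1.61 ± 0.25. For BDNF it was 0.89 ± 0.21, for SIK1 0.82 ± 0.20, for NDUFB2 0.97 ± 0.26, for MACIR -1.29 ± 0.24 and for LONRF1 -0.72 ± 0.27. Not every gene named by its p kept its early-night sign. In the long day PDIA3 had 0.17 ± 0.18, MYOZ3 0.24 ± 0.43, PSKH1 -0.03 ± 0.30 and SULF2 -0.02 ± 0.25. The differences between the exposures (long day minus early night) did not pass, at -0.50 ± 0.35 for TXN (adjusted p = 0.688), -0.26 ± 0.30 for BDNF (adjusted p = 0.839) and 0.06 ± 0.28 for SIK1 (adjusted p = 0.973). A p that misses the threshold does not show that the exposures act alike. TRA2B and SLC38A2 had 0.20 ± 0.18 and -0.11 ± 0.26 in the long day, and the differences from early-night light, -0.79 ± 0.25 and 1.13 ± 0.36, did not pass (both adjusted p = 0.265).

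A tested difference between the long day and early-night light was found for 3 of 12532 genes (0.0239%). No gene passed with array weights, quantile normalization, array scaling or the pool number as a block, where 702, 611, 606 and 1134 genes had an unadjusted p under 0.05. TOR4A, a member of the torsin ATPase family, had an early-night difference of 0.76 ± 0.24 but a long-day difference of -2.15 ± 0.24, and these differed by -2.92 ± 0.34 (adjusted p = 0.00979). CCDC113, a coiled-coil protein of cilia, had 0.28 ± 0.25 and -2.22 ± 0.25 and differed by -2.50 ± 0.35 (adjusted p = 0.0395). The unnamed probe DT40subNB_18F2 had 0.43 ± 0.26 and -2.10 ± 0.26 and differed by -2.53 ± 0.37 (adjusted p = 0.0442). For TOR4A the long-day controls had 1.75 and 1.24, while the other 14 pools lay at 0.38 or below, so the dark controls of the long day stood apart from the early-night dark controls at the same ZT14. The same was seen for CCDC113, with 1.90 and 2.20 in the long-day controls, and for DT40subNB_18F2, with 2.33 and 1.64. The count changed when any 1 pool of the long-day or the early-night comparison was left out, in fits where a group then held 1 pool.

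**Figure D5:**
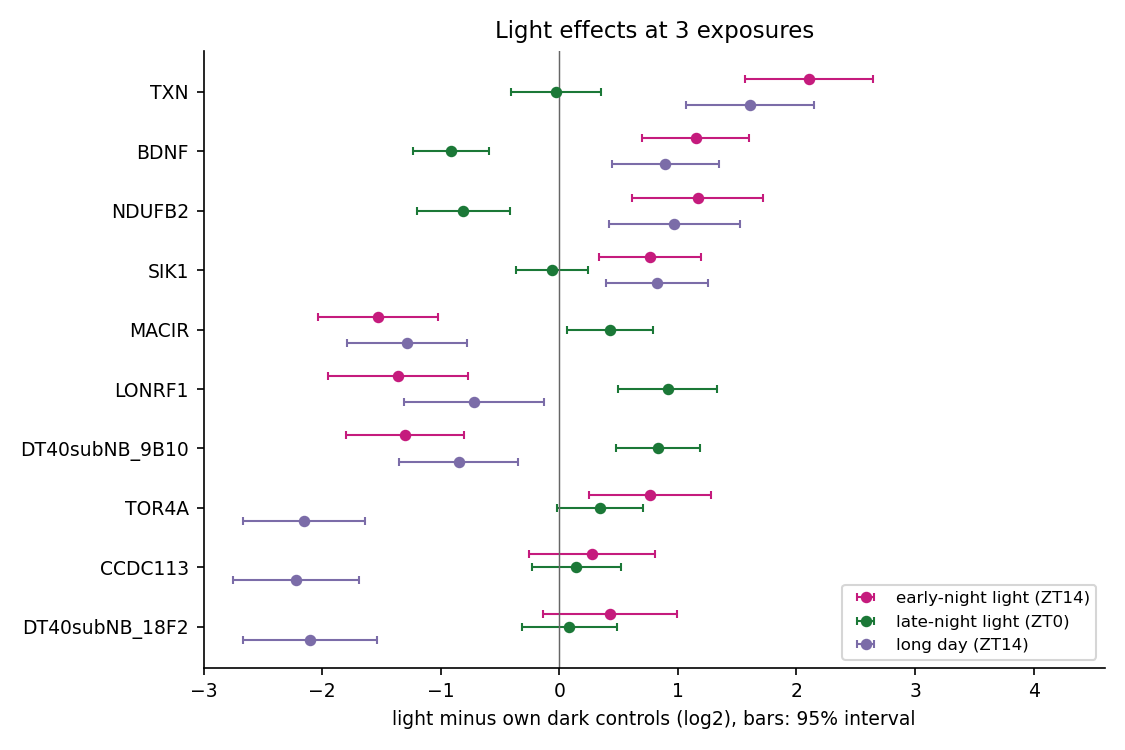
Difference between light and its own dark controls (x axis, log2) with 95% intervals from limma for 10 genes and unnamed probes at 3 exposures. BDNF, NDUFB2, MACIR, LONRF1 and DT40subNB_9B10 lie on opposite sides of 0 at ZT14 and at ZT0, and the long day lies far below early-night light for TOR4A, CCDC113 and DT40subNB_18F2.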

How the data were processed

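Pineal RNA was amplified and labelled with a Cy3-type dye and the common reference with a Cy5-type dye, per the labels' protocols, with no dye swap. The authors deposited 1 log ratio per probe and array, taken as log2. Neither the log base nor the numerator is stated, and background correction and normalization are not given in the labels. Of 15769 probes, 160 control spots were left out. Probes were named from the platform annotation (9628 with 1 symbol, 0 with several, 5981 with none) and averaged per gene. Genes with values on at least 2 arrays of every group were kept, 12532 in all (6660 with a symbol). limma 3.58.1 in R 4.3.3 fitted 1 mean for each of 6 groups over 16 arrays (residual degrees of freedom 10, prior 3.33), with Benjamini-Hochberg adjustment over all genes. The code was tested on simulated data. The number of arrays limits the precision, and no intensities were used.

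Errors after ± are limma standard errors. The fit shares 1 spread over all groups. The root mean square deviation of an array from its group mean was 0.224 to 0.258 in the compared groups and 0.379 to 0.471 in the long-day groups. In the ZT0 groups it was 0.25 to 0.37. These values are not corrected for the number of pools and understate the spread, most so in groups of 2 pools. Named genes were the called genes, the 12 genes with a symbol, no overlap and the smallest p in each direction, up to 2 members of each list with an unadjusted p under 0.05 and no overlap, 12 clock, melatonin and immediate early genes (7 measured), genes called between light effects, and at most 2 unnamed probes each way. Other list members, among them NQO2, GPX7, NFE2L1, RGR, NDUFA9, RBM3, SRPK2, UBA2, PSMA3, SLC6A6, AARS1, IL8L2, ORC1, HBBA, PECAM1, FBLN2 and all members given near 0, were named after their values were seen. The comparison, the 31 lists and the rules were chosen with earlier results of these data known. Alternatives changed the arrays, prior, weights, normalization, probe summary, filter, controls and block, and left out each pool.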

Additional observations from a re-analysis of the deposited data

Results flagged for a closer look

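Light effects that differed between exposures by limma's contrast of the effects were found for 8 genes or unnamed probes. For late-night minus early-night light the differences were 2.27 ± 0.33 for LONRF1, 2.13 ± 0.28 for DT40subNB_9B10, 1.96 ± 0.29 for MACIR, -2.06 ± 0.26 for BDNF and -2.13 ± 0.31 for TXN. The order of light and dark at ZT0 was the reverse of that in both ZT14 comparisons for LONRF1, DT40subNB_9B10, MACIR and BDNF. For these, neither the early-night nor the late-night difference passed the adjusted test by itself. Group labels were taken as given and were not tested. For the long day minus early-night light the differences were -2.92 ± 0.34 for TOR4A, -2.53 ± 0.37 for DT40subNB_18F2 and -2.50 ± 0.35 for CCDC113. For TOR4A, DT40subNB_18F2 and CCDC113 the long-day dark controls stood apart from every other pool.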

How the results depend on the processing

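For early-night light limma called 1 gene in the main setting, 3 without the arrays of the long-day paradigm, 5 with array weights, 11 after quantile normalization, 7 after array scaling and 392 against all 4 dark pools at ZT14. It called 0 with only the 4 arrays compared (580 at an unadjusted p under 0.05) and 0 with a trended robust prior (519). Leaving out 1 pool gave 2 to 65 calls, with the lone pool of an arm assumed to vary like the other groups. Pools share numbers across light and dark without a stated link. The numbers were not taken as pairs. Deviations of same-numbered pools correlated at 0.120 in this paradigm, and those of pools with different numbers at -0.120. With 2 pools in a group the deviations mirror each other, so this check cannot decide whether the pools were paired. At ZT0 same-numbered pools correlated between -0.000165 and 0.310, and not every pool correlated best with its own number. Pools with different numbers ran from -0.420 to 0.340 there. The SD over probes was 0.25 to 0.34 in ZT0 pools 1 and 2 and 0.45 to 0.55 in ZT0 pools 3 and 4. The fit treats these 4 pools of a group as 1 set of replicates, and a split between them was not tested. With the pool number as a replicate block limma called 0 genes in each of the 3 comparisons (554, 542 and 1134 at an unadjusted p under 0.05).

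For late-night minus early-night light the count of 5 became 12 after quantile normalization, 26 against all 4 dark pools at ZT14 and 0 with a trended robust prior (509 unadjusted), and 0 to 45 without 1 pool. For the long day minus early-night light the count of 3 became 5 with each probe on its own, 8 without the filter, 1 with a trended robust prior, and 0 with array weights (702 unadjusted), after quantile normalization (611) and after scaling (606), and 5 to 389 without 1 pool. The contrasts that need the long-day arrays could not be fitted without them. Of 74 named genes 7 changed sign under an alternative. Leaving out 1 pool gave -0.41 to 0.70 for PER3, -0.27 to 3.94 for NFE2L1 and -0.038 to 0.19 for BHLHE40. Against all 4 dark pools at ZT14, CRY2 had -0.42, CCDC113 -0.71, DT40subNB_18F2 -0.63 and TOR4A -0.27. The cause of these changes was not tested. None of the 24 genes named by their p (12 in each direction, with a symbol and no overlap) changed sign under these alternatives. Leaving out 1 pool could not turn their sign, since no overlap was required. Changes of the prior, the block or the arrays used for the spread left their differences unchanged. IRAK4, ISLR, NDUFB2, SLC38A2, SLC2A11L1, CHMP2A and DIRAS2 passed only against all 4 dark pools at ZT14, where 392 genes passed. The 24 genes were chosen for a small p, so a call under some alternative is no independent support.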

Other observations

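Unnamed probes were among the smallest p-values of the early-night comparison. DT40subNB_4C3 had -0.87 and -1.20 in light and 2.10 and 0.81 in the dark, a difference of -2.49 ± 0.37 (limma, adjusted p = 0.0749), which ran from -3.14 without dark pool 2 to -1.62 with all 4 ZT14 dark pools as controls. DT40subNB_6D7 had 0.96 and 0.60 in light and -0.26 and -0.81 in the dark, a difference of 1.31 ± 0.22 (adjusted p = 0.144), and passed in 5 of 16 alternatives. C0004101_G24 had 0.16 and 0.49 in light and -1.77 and -1.42 in the dark, a difference of 1.92 ± 0.42 (adjusted p = 0.300). The files and tables used here give these probes no gene.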
